A study of Mus musculus with 29 samples.

Results

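A set of 9 genes of epithelial salt and water transport were followed in mouse lung, by every array probe whose accession matched 1 of them: the 3 subunits of the epithelial sodium channel ENaC (Scnn1a, Scnn1b and Scnn1g), the kinase Sgk1, the ubiquitin ligase Nedd4l, the sodium pump subunit Atp1b1, the chloride channel Cftr and the water channels Aqp1 and Aqp5. These 9 genes, of 15350 named genes tested, had 11 probes of 41174, and all 11 passed the filter on dim probes. Whole-lung RNA came from C57BL/6 mice of 6 to 8 weeks, either without Klf15 (KO) or wild type (WT), that were given the synthetic steroid dexamethasone (2.5 mg/kg), which acts on the glucocorticoid receptor, or only its vehicle, saline. Klf15 encodes a Krüppel-like transcription factor, and the series title names it with the glucocorticoid receptor as a feed-forward circuit. KO mice given dexamethasone had 4 arrays at 4 h and 4 at 8 h, and KO mice given saline 3 and 4. WT mice given dexamethasone had 4 arrays at 4 h and 3 at 8 h, and WT mice given saline 4 and 3. The labels call the replicates biological, and they do not give the Klf15 allele in more detail.

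Salt moves out of the lung's air spaces in a relay: sodium enters epithelial cells through ENaC on the side that faces the air and is pumped out on the other side by the sodium-potassium ATPase, and water follows. Nedd4l marks ENaC for removal from the cell surface, and Sgk1, a kinase known as a target of glucocorticoids and aldosterone, phosphorylates Nedd4l and so holds it off the channel. Cftr secretes chloride into the airway lumen, Aqp5 is the water channel on the air side of alveolar type 1 cells, and Aqp1 is a water channel of endothelium and red cells.

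Because glucocorticoid-responsive genes often carry a binding sequence of the receptor near a start site, promoter windows of the members were searched. Windows reached from 250 bases before to 50 bases after a start and came from RefSeq on GRCm38.p6; 12 windows of 7 members were available, and 6 of the 12 belong to Sgk1. The core ACANNNTGT, which reads the same on both strands, lay in 2 of the 6 Sgk1 windows and in 0 of the 6 windows of Atp1b1, Cftr, Aqp1, Aqp5, Scnn1b and Scnn1g, against 6.85% of all 32851 promoter windows. The 2 Sgk1 windows with the core are shown, and beside them that of Atp1b1, which also rose in all 4 dexamethasone comparisons. Capitals mark the core and the hexamer TGTTCT, or AGAACA on the other strand, which 19.0% of all windows hold.
Sgk1, chr10:21993640-21993939, plus strand: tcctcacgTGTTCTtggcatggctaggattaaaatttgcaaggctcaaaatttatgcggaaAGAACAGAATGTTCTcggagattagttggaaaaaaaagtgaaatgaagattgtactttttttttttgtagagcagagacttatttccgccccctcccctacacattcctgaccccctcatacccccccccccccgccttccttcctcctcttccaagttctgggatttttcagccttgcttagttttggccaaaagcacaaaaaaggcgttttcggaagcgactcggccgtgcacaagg
Sgk1, chr10:21978422-21978721, plus strand: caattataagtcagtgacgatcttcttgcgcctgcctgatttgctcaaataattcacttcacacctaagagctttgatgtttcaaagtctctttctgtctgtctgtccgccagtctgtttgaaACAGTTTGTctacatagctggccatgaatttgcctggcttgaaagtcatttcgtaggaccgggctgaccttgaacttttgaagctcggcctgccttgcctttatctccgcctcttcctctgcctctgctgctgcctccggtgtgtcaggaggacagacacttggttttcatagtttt
Atp1b1, chr1:164458306-164458605, minus strand: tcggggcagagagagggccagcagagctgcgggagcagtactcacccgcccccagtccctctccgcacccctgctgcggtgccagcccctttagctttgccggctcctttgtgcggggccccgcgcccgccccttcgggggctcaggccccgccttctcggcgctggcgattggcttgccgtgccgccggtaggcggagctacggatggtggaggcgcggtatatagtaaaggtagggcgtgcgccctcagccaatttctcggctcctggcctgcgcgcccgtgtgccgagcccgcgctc
In the first Sgk1 window both hexamers face each other around the core, from base 62 to base 76, and begin 189 bases before the start. This full palindrome, searched after the core match was seen, occurs in 3 of the 32851 windows. A match is a description of the letters and shows no binding, and the windows without a match say nothing of sites elsewhere.

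Of the 43379 non-control spots on an array, 75.5 to 88.5% exceeded background clearly, and precision is limited by how many arrays a group has. A level below is the log2 of a probe's processed signal minus the log2 of the array's own 75th percentile, so that 0 stands for that percentile and a difference of 1 for a doubling. Levels of different probes are not set against each other. All 10 markers of alveolar type 2 cells and the 9 of alveolar type 1 cells that the array held were well above background on all 29 arrays. Both Klf15 probes were lower on every KO array than on every WT array (KO minus WT of -2.96 and -2.64 averaged over treatments and times), and the labels do not say whether they lie in the deleted part. Both probes stayed well above background on every KO array. At 4 h the brighter one averaged 1.235 after dexamethasone and -0.67 after saline in KO lungs, against 4.196 and 2.249 in WT lungs. The glucocorticoid target Fkbp5 rose with dexamethasone in each genotype and at each time by 2 of its 3 probes, and by the third except in WT lungs at 8 h. The 7 KO saline arrays stood apart from the other 22 in the mean log2 ratio of the bright to the dim probe, over 2632 genes with probes of unequal brightness. It was -0.369 to -0.115 there and -0.086 to 0.289 elsewhere. After quantile normalization the ranges overlapped, with KO saline replicate 48 at -0.0331 and KO dexamethasone replicate 61 at -0.0864. What sets the ratio was not tested. Every dexamethasone effect in KO mice, every saline genotype difference and every genotype difference of an effect rests on those 7 arrays, as does part of every genotype difference averaged over treatments. Because the ratio nearly marks the KO saline arrays, a fit with it as a covariate cannot separate the ratio from that group. A call lost in that fit can reflect a wider SE as well as a smaller difference. In whole lung, fewer cells of a type cannot be told apart from less RNA per cell.

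**Figure D1:**
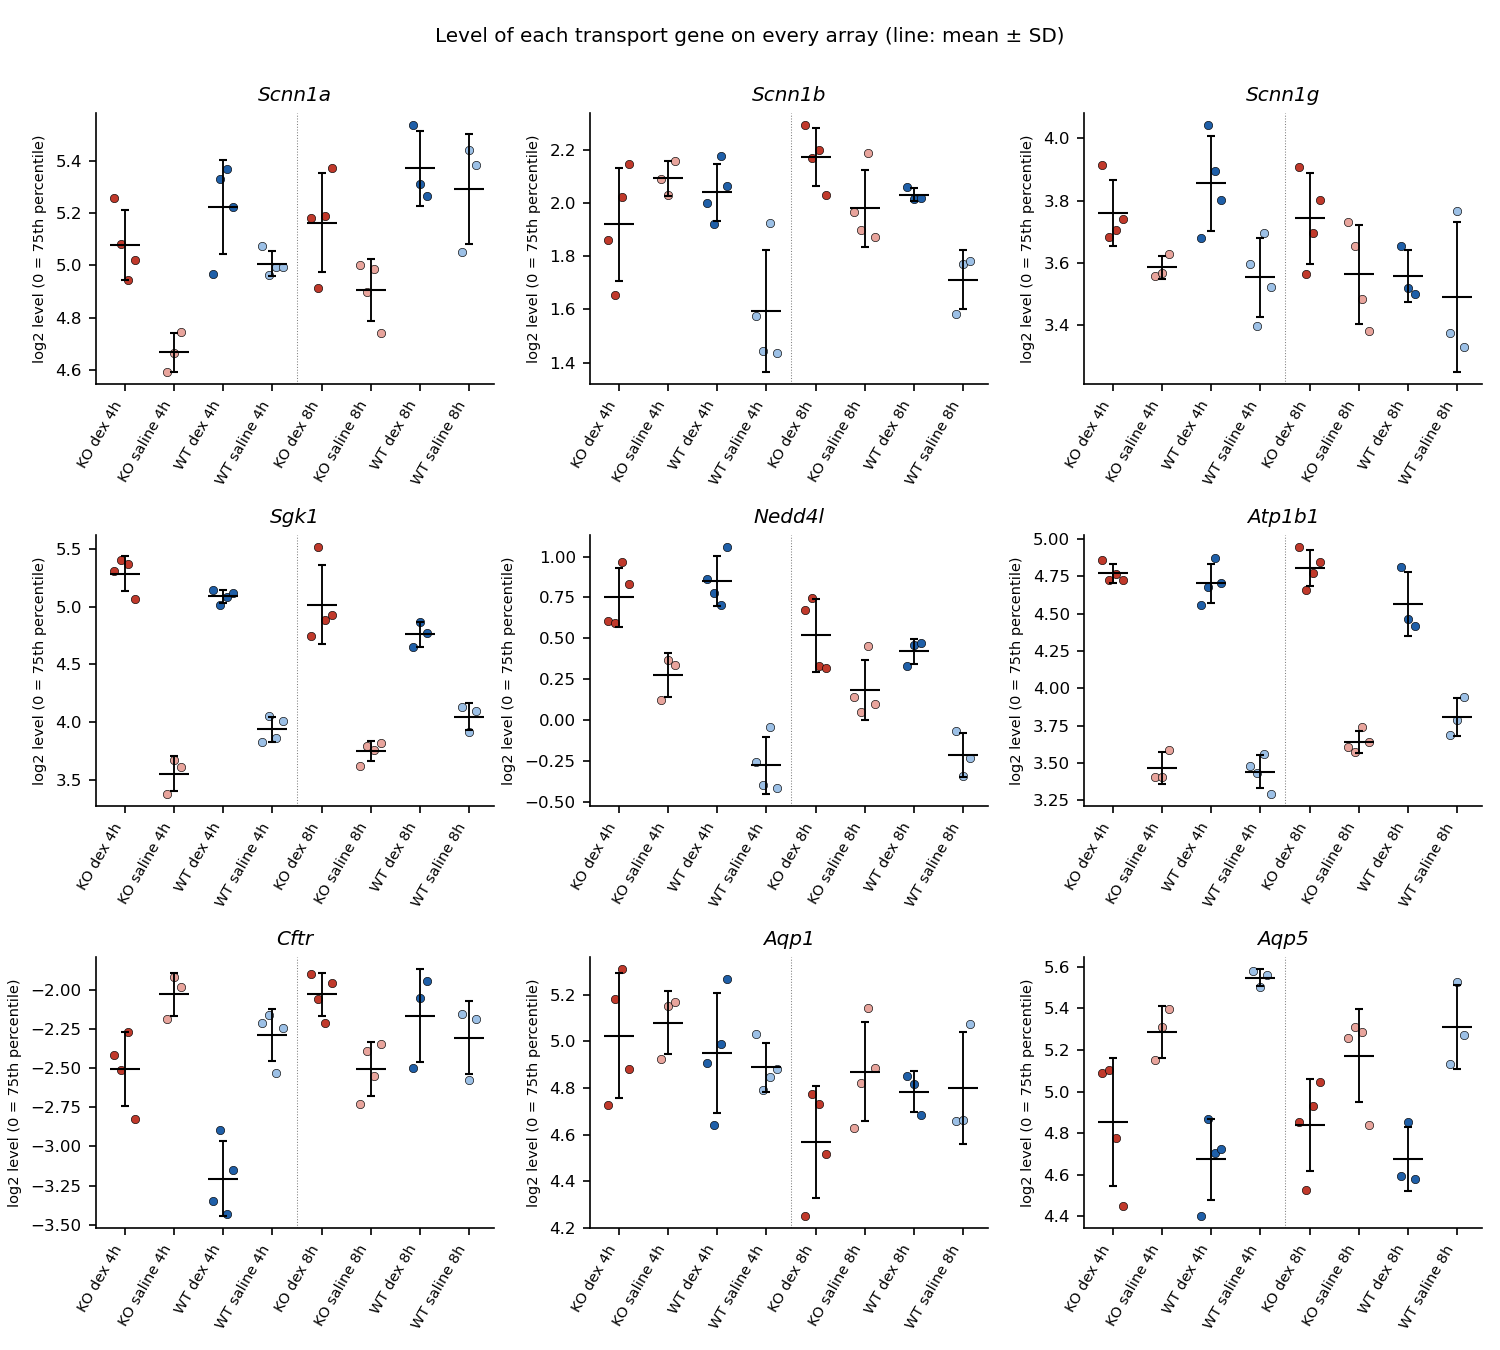
Log2 level of the brightest probe of each of the 9 genes (y axis, 0 = the array's 75th percentile) on every array of the 8 groups (x axis), with the mean and SD as lines and 4 h left of the dotted line. Sgk1 and Atp1b1 were above every saline array on every dexamethasone array, Aqp5 lay lower on most dexamethasone arrays, and Aqp1 groups that neighbour each other in level overlapped.

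Sgk1, Nedd4l and Atp1b1 rose after dexamethasone in both genotypes and at both times. At 4 h in WT lungs Atp1b1, Nedd4l, Sgk1, Scnn1b and Scnn1g rose and Aqp5 and Cftr fell, which is 7 of 9 genes called (adjusted p under 0.05), where 35.9% of all named genes were called. At 4 h in KO lungs Atp1b1, Nedd4l, Sgk1 and, by its bright probe, Scnn1a rose and Aqp5 and Cftr fell, 6 of 9 against 41.4% of all. At 8 h in KO lungs Atp1b1, Cftr, Nedd4l and Sgk1 rose, 4 of 9 against 41.2%, and at 8 h in WT lungs Atp1b1, Nedd4l and Sgk1 rose and Aqp5 fell, 4 of 9 against 22.1%. The median log2 difference of the 9 genes was 0.30 in WT lungs at 4 h (-0.02 over all named genes), 0.18 in KO lungs at 4 h (0.03), 0.26 in KO lungs at 8 h (0.10) and 0.14 in WT lungs at 8 h (-0.06). The KO share at 8 h is thus close to that of all genes. All p-values come from 1 limma model of all 29 arrays and are Benjamini-Hochberg values over all 33935 probes kept.

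**Figure D2:**
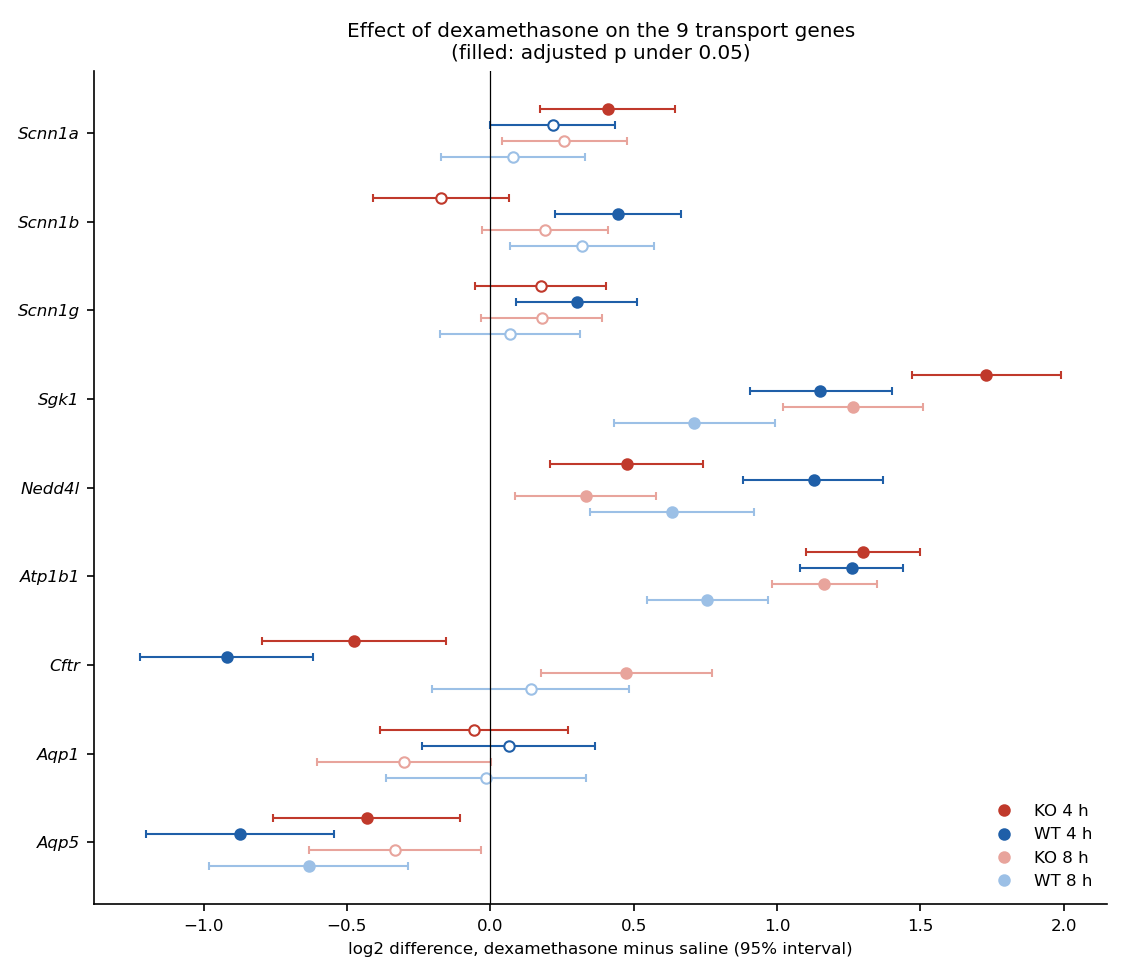
Log2 difference between dexamethasone and saline for the 9 genes (rows) in the 4 combinations of genotype and time, with the 95% interval of the fit; filled points passed the adjusted p of 0.05. Sgk1, Nedd4l and Atp1b1 lie right of 0 in all 4, Aqp5 left of 0 in all 4, and Cftr changes side between 4 h and 8 h.

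Scnn1a encodes the alpha subunit, without which ENaC carries no sodium current in mouse lung. In KO lungs at 4 h its bright probe read 4.94, 5.02, 5.08 and 5.26 after dexamethasone and 4.59, 4.67 and 4.74 after saline. WT lungs at 4 h read 4.97, 5.22, 5.33 and 5.37 after dexamethasone and 4.96, 4.99, 4.99 and 5.08 after saline. The KO groups did not overlap and the WT groups did. The difference was 0.41 in KO lungs (SE 0.11, adjusted p = 0.00617). It was 0.22 in WT lungs at 4 h (SE 0.105, adjusted p = 0.119), 0.26 in KO lungs at 8 h (SE 0.105, adjusted p = 0.0594) and 0.08 in WT lungs at 8 h (SE 0.12, adjusted p = 0.719). With the ratio as a covariate the KO difference at 4 h was 0.11 (adjusted p = 0.614). The second, dimmer probe of Scnn1a went the other way in KO lungs: it read -2.42, -2.31, -2.19 and -1.97 after dexamethasone for 4 h and -1.82, -1.58 and -1.36 after saline. Here too the groups did not overlap, and the difference was -0.63 (adjusted p = 0.0033). At 8 h the dim probe differed by -0.69 in KO lungs (adjusted p = 0.000959), while in WT lungs at 4 h it moved with the bright one, by 0.45 (adjusted p = 0.0236). The direction of Scnn1a in KO lungs thus depended on the probe, and calls given for the gene elsewhere are those of its bright probe. The 8 means of the bright probe ran from WT dexamethasone at 8 h (5.37) to KO saline at 4 h (4.67), and all 7 neighbouring pairs overlapped.

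**Figure D3:**
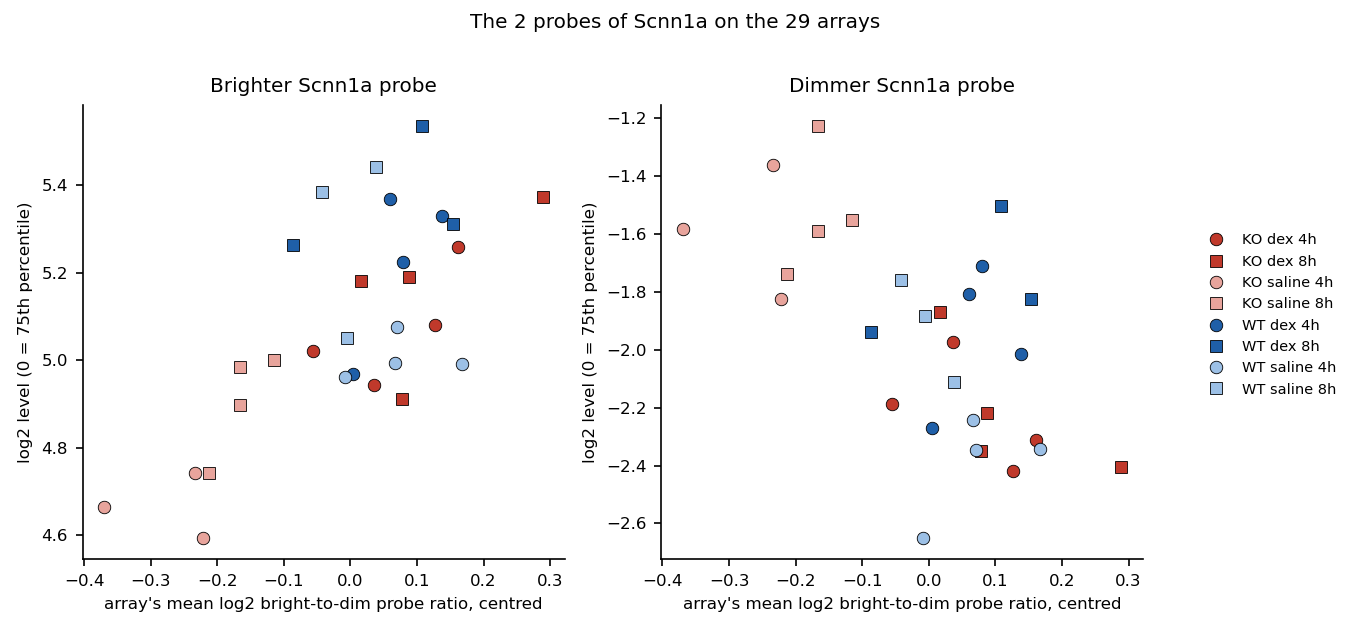
Log2 level of the bright (left) and the dim (right) Scnn1a probe (y axes) on the 29 arrays against the array's mean bright-to-dim log2 probe ratio over 2632 genes, centred over arrays (x axis). The 7 KO saline arrays hold the 7 lowest ratios, and there the bright probe is low (4.59 to 5.0) and the dim probe high (-1.82 to -1.23).

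Scnn1b and Scnn1g encode the beta and gamma subunits, which carry the channel to the surface and bind Nedd4l through their tails. Scnn1b read 1.92, 1.999, 2.06 and 2.17 after dexamethasone in WT lungs at 4 h, and 1.44, 1.44, 1.57 and 1.92 after saline. One saline array thus reached the lowest dexamethasone array, and Scnn1b rose by 0.45 (SE 0.11, adjusted p = 0.00194), which is 1.36-fold. At 8 h WT lungs read 2.02, 2.02 and 2.06 after dexamethasone and 1.58, 1.77 and 1.78 after saline, groups that did not overlap, with a difference of 0.32 that missed the threshold (SE 0.12, adjusted p = 0.0717). In KO lungs it differed by -0.17 at 4 h (95% interval -0.41 to 0.06) and by 0.19 at 8 h (-0.03 to 0.41). The KO saline arrays, at 2.03 to 2.16 at 4 h, lay within the range of the WT dexamethasone arrays at 4 h. The 8 group means ran from KO dexamethasone at 8 h (2.17) to WT saline at 4 h (1.59), with both WT saline groups last and all 7 neighbouring pairs overlapping.

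Scnn1g rose by 0.30 in WT lungs at 4 h (SE 0.10, adjusted p = 0.0242), a 1.23-fold change, with 3.68, 3.80, 3.90 and 4.04 after dexamethasone and 3.40, 3.52, 3.60 and 3.70 after saline. The highest saline array lay above the lowest dexamethasone array. This call was lost when any of 4 single arrays was left out, the saline replicates 34 and 36 and the dexamethasone replicates 50 and 51, with values of 0.24 to 0.29. It was also lost under 5 of 16 other settings: quantile normalization (0.23, adjusted p = 0.059), median scaling (0.21, adjusted p = 0.307), normexp background correction (0.19, adjusted p = 0.207), the deposited series table (0.23, adjusted p = 0.103) and a fit of only the groups compared (adjusted p = 0.0641). In the other comparisons Scnn1g differed by 0.18 in KO lungs at 4 h and at 8 h and by 0.07 in WT lungs at 8 h, none past the threshold. Its 8 group means spanned 0.36, the smallest span among the brightest probes of the 9 genes, and the ranges of all 7 neighbouring pairs of groups overlapped.

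Sgk1 rose in all 4 comparisons. At 4 h it read 5.06, 5.31, 5.37 and 5.40 after dexamethasone in KO lungs, against 3.38, 3.61 and 3.67 after saline. In WT lungs at 4 h it read 5.01, 5.08, 5.12 and 5.14 after dexamethasone, against 3.83, 3.86, 4.01 and 4.05 after saline. Neither pair of groups overlapped. It rose by 1.73 in KO lungs at 4 h (SE 0.13, adjusted p = 4.03e-10), a 3.32-fold change, and by 1.15 in WT lungs (SE 0.12, adjusted p = 6.38e-08), a 2.22-fold change.

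At 8 h Sgk1 read 4.75, 4.88, 4.92 and 5.51 after dexamethasone in KO lungs, against 3.62, 3.76, 3.80 and 3.82 after saline. In WT lungs at 8 h it read 4.65, 4.77 and 4.87 after dexamethasone, against 3.91, 4.10 and 4.13 after saline. The rise was 1.26 in KO lungs (SE 0.12, adjusted p = 2.47e-08) and 0.71 in WT lungs (SE 0.14, adjusted p = 0.000636), again without overlap. In order, the group means ran from KO dexamethasone at 4 h (5.29) through WT dexamethasone at 4 h (5.09), KO dexamethasone at 8 h (5.02) and WT dexamethasone at 8 h (4.76) to WT saline at 8 h (4.05) and 4 h (3.94) and KO saline at 8 h (3.75) and 4 h (3.56). Of the 7 neighbouring pairs in that order, 2 did not overlap: the step between dexamethasone and saline, and the step between WT and KO saline.

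Nedd4l, the ligase that takes ENaC off the surface, rose together with the kinase that restrains it. It read 0.70, 0.78, 0.86 and 1.06 after dexamethasone in WT lungs at 4 h, against -0.42, -0.40, -0.26 and -0.04 after saline, and in WT lungs at 8 h 0.33, 0.46 and 0.47, against -0.34, -0.23 and -0.07. In KO lungs at 4 h it read 0.60, 0.61, 0.83 and 0.96 after dexamethasone, against 0.12, 0.33 and 0.37 after saline. None of these 3 pairs overlapped. The rises were 1.13 (SE 0.12, adjusted p = 1.04e-07) and 0.63 (SE 0.14, adjusted p = 0.00201) in WT lungs at 4 and 8 h, and 0.48 (SE 0.13, adjusted p = 0.00505) in KO lungs at 4 h.

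In KO lungs at 8 h Nedd4l read 0.32, 0.33, 0.67 and 0.75 after dexamethasone and 0.05, 0.10, 0.14 and 0.46 after saline, groups that overlapped, with a rise of 0.33 (SE 0.12, adjusted p = 0.0321). That call was lost without KO saline replicate 45, 46 or 48 or KO dexamethasone replicate 61 or 62, with values of 0.26 to 0.32. In the order of its 8 group means all 4 dexamethasone groups stood first (0.85 to 0.42), then both KO saline groups (0.28 and 0.18), then both WT saline groups (-0.21 and -0.28), and the single neighbouring pair without overlap lay between KO and WT saline.

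Atp1b1 encodes the beta subunit that brings the sodium pump to the basolateral membrane. At 4 h it read 4.72, 4.73, 4.76 and 4.86 after dexamethasone in KO lungs, against 3.40, 3.41 and 3.59 after saline. For WT lungs at 4 h the values were 4.56, 4.68, 4.71 and 4.87, against 3.29, 3.43, 3.48 and 3.56. Every dexamethasone array stood above every saline array of its genotype, and the rise was 1.30 in KO lungs (SE 0.10, adjusted p = 4e-10) and 1.26 in WT lungs (SE 0.09, adjusted p = 1.85e-10), that is 2.46-fold and 2.40-fold.

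At 8 h Atp1b1 read 4.66, 4.78, 4.84 and 4.94 after dexamethasone in KO lungs, against 3.57, 3.61, 3.64 and 3.74 after saline. In WT lungs at 8 h it read 4.42, 4.46 and 4.81, against 3.69, 3.79 and 3.94. Neither pair overlapped, and the rise was 1.16 in KO lungs (SE 0.09, adjusted p = 1.03e-09) and 0.76 in WT lungs (SE 0.10, adjusted p = 1.44e-05). Among the 4 dexamethasone groups, whose means lay between 4.56 and 4.80, every neighbouring pair overlapped, as did the 4 saline groups between 3.44 and 3.81.

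The differences of Sgk1, Nedd4l and Atp1b1 had the same direction between single arrays on a shared slide, where 1 array of each group was present. On 2 slides at 4 h, Sgk1 differed by 1.01 and 1.22, Nedd4l by 1.20 and 0.74 and Atp1b1 by 1.38 and 1.31. On 1 slide at 8 h the differences were 0.67, 0.70 and 0.48 in the same order. In KO lungs they were 1.76, 0.63 and 1.17 on 1 slide at 4 h, and at 8 h 1.30, 0.18 and 1.24 on 1 slide and 1.08, 0.28 and 1.20 on another.

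Cftr, the cyclic-AMP-gated chloride channel, fell at 4 h and did not fall at 8 h. Its brighter probe was spotted 10 times on each array, and the SD of the 10 spots within an array (median 0.069) was smaller than the SD between arrays of a group (0.137 to 0.296). At 4 h it read -3.43, -3.35, -3.15 and -2.90 after dexamethasone in WT lungs, against -2.53, -2.24, -2.21 and -2.16 after saline. KO lungs at 4 h read -2.83, -2.51, -2.42 and -2.27, against -2.19, -1.98 and -1.92. Both pairs were free of overlap, and Cftr fell by 0.92 in WT lungs (SE 0.14, adjusted p = 2.42e-05), to 0.529 of the saline level, and by 0.48 in KO lungs (SE 0.16, adjusted p = 0.0179). The KO call was lost without KO saline replicate 43 or 44 or KO dexamethasone replicate 60 (-0.45 to -0.37) and with the ratio as a covariate (-0.44, adjusted p = 0.177). It held under 9 of 15 other settings.

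At 8 h Cftr read -2.21, -2.06, -1.95 and -1.90 after dexamethasone in KO lungs, against -2.73, -2.55, -2.39 and -2.34 after saline, without overlap, a rise of 0.47 (SE 0.14, adjusted p = 0.0124) that was lost with the ratio as a covariate (0.50, adjusted p = 0.0736). In WT lungs at 8 h it read -2.50, -2.05 and -1.94, against -2.58, -2.18 and -2.16, and the difference was 0.14 (95% interval -0.20 to 0.48). The dexamethasone effect at 8 h minus that at 4 h was 1.06 in WT lungs (SE 0.22, adjusted p = 0.00484, where 5.40% of all named genes were called) and 0.95 in KO lungs (SE 0.21, adjusted p = 0.0168, and not called without KO saline replicate 43, at 0.90, against 2.58%). Of the 8 group means of the brighter probe, 7 lay between -2.03 and -2.51 with neighbours that overlapped, and WT dexamethasone at 4 h stood apart at -3.21. The second Cftr probe was dim: it was well above background on 0 WT arrays at 4 h in either treatment and passed in none of the comparisons. It differed by -0.78 in WT lungs and by -0.74 in KO lungs at 4 h, and by -0.10 and 0.15 at 8 h.

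Aqp5 fell in WT lungs. At 4 h it read 4.40, 4.70, 4.72 and 4.87 after dexamethasone, against 5.50, 5.56 and 5.58 after saline (1 of the 4 saline arrays had its spot marked as an outlier and was left out of the fit). At 8 h it read 4.58, 4.60 and 4.85, against 5.13, 5.27 and 5.53. Neither pair overlapped. It fell by 0.87 at 4 h (SE 0.16, adjusted p = 0.000138), to 0.546 of the saline level, and by 0.63 at 8 h (SE 0.17, adjusted p = 0.00991), where the call was lost without WT saline replicate 38 (-0.52).

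In KO lungs at 4 h Aqp5 read 4.45, 4.78, 5.09 and 5.10 after dexamethasone, against 5.15, 5.31 and 5.39 after saline, and it fell by 0.43 (SE 0.16, adjusted p = 0.0331), a call lost without KO saline replicate 43 or 44 or KO dexamethasone replicate 59 or 60 (-0.42 to -0.30). In KO lungs at 8 h it read 4.53, 4.85, 4.93 and 5.04, against 4.84, 5.26, 5.29 and 5.31, groups that overlapped, with a difference of -0.33 (SE 0.145, adjusted p = 0.0783). That difference was called under 7 other settings, among them slide as a fixed block (-0.36, adjusted p = 0.00166) and the ratio as a covariate (-0.74, adjusted p = 0.00357). The order of the 8 means set all 4 saline groups (5.55 to 5.17) before all 4 dexamethasone groups (4.85 to 4.67), and all 7 neighbouring pairs overlapped. Of the 9 alveolar type 1 markers, which share its cell type, 3 rose and 1 fell in WT lungs at 4 h, where 35.9% of all named genes were called. The summed level of the 9 was 8.04 to 8.25 after dexamethasone and 7.92 to 8.08 after saline. The marker Ager differed by -0.14 there (adjusted p = 0.523), and Pdpn rose by 0.82 (adjusted p = 9.85e-07). Both are examples named outside the rule for named genes, and the 1 marker that fell is not among them.

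Aqp1 did not pass the threshold in any of the 15 comparisons. For KO lungs at 8 h it was called as lower after dexamethasone under quantile normalization (-0.56, adjusted p = 0.0326), normexp (-0.51, adjusted p = 0.0461) and in the deposited series table (-0.50, adjusted p = 0.0219). Its group means lay between 4.57 in KO lungs after dexamethasone for 8 h and 5.08 in KO lungs after saline for 4 h, and all 7 neighbouring pairs of groups overlapped. The dexamethasone difference was -0.06 in KO lungs at 4 h (95% interval -0.38 to 0.27), 0.06 in WT lungs at 4 h (-0.24 to 0.37), -0.30 in KO lungs at 8 h (-0.60 to 0.00087) and -0.01 in WT lungs at 8 h (-0.36 to 0.34). Endothelial and erythroid markers mark the cells where Aqp1 is best known. Of 12 endothelial markers 8 fell and 2 rose in WT lungs at 4 h and 7 fell and 1 rose in KO lungs. Of 9 erythroid markers 0 passed in WT lungs and 4 rose in KO lungs at 4 h. Of all named genes, 35.9% were called in WT lungs and 41.4% in KO lungs at 4 h. The summed endothelial level in WT lungs at 4 h was 8.12 to 8.211 after dexamethasone and 7.426 to 8.385 after saline. In KO lungs at 4 h it was 7.571 to 8.221, against 8.159 to 8.239. A spot dropped as an outlier adds nothing to such a sum, so an array that lost a bright spot reads low. Whether the lows of 7.426 and 7.571 are such cases was not tested, and overlap is not read from these sums. The part of these cells in the Aqp1 values was not tested.

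Markers of lymphocytes and of club cells, secretory cells of the airway, were counted in the same 4 dexamethasone comparisons. Of all named genes, 41.4% were called in KO lungs and 35.9% in WT lungs at 4 h, and 41.2% and 22.1% at 8 h. Of 8 B cell markers 7 fell in each of the 4 dexamethasone comparisons, and of 8 T and NK cell markers 7. The summed B cell level in WT lungs at 4 h was 1.02 to 2.03 after dexamethasone and 3.51 to 4.09 after saline. Of 5 club cell markers tested, 4 rose in KO lungs and 2 in WT lungs at 4 h. At 8 h 4 rose in KO lungs and 1 in WT lungs, and 0 fell in any of the 4 comparisons. The WT counts of club cell markers are thus close to the share of all genes. The median log2 difference of these markers was 0.53 in KO lungs and 0.40 in WT lungs at 4 h, and 0.53 and 0.37 at 8 h. The part of these cells in the values of the transport genes was not tested. The summed level of the 10 alveolar type 2 markers in WT lungs at 4 h was 9.103 to 9.551 after dexamethasone and 8.951 to 9.247 after saline. In KO lungs at 4 h it was 7.57 to 9.472, against 8.934 to 9.056. A spot dropped as an outlier adds nothing to such a sum, so an array that lost a bright spot reads low. Whether the value of 7.57 is such a case was not tested, and overlap is not read from these sums.

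Between KO and WT lungs given dexamethasone, Cftr alone was called at 4 h (1 of 9, against 0.801% of all named genes) and 0 of 9 genes at 8 h (against 3.82%). At an unadjusted p under 0.05 limma gave 1 gene at 8 h, Atp1b1, with a difference of 0.24 and an adjusted p of 0.15. After saline, Nedd4l and Scnn1b were higher and Sgk1 and, by its bright probe, Scnn1a lower in KO lungs at 4 h (4 of 9, against 21.4%). At 8 h Nedd4l was higher and Scnn1a, again by its bright probe, lower (2 of 9, against 12.3%). Averaged over treatments and times, Cftr, Nedd4l and Scnn1b were higher and the bright probe of Scnn1a lower in KO lungs (4 of 9, against 17.6%). With the ratio as a covariate none of these 4 averaged calls held. The differences were then 0.21 for Cftr (adjusted p = 0.165), 0.14 for Nedd4l (adjusted p = 0.211), 0.13 for Scnn1b (adjusted p = 0.208) and -0.17 for Scnn1a (adjusted p = 0.095). Without it the bright Scnn1a probe differed by -0.27 and the dim one by 0.12 (adjusted p = 0.00222 and 0.37). The averaged Cftr call (0.22, adjusted p = 0.0481) held in only 8 of the 29 fits that left out 1 array (0.18 to 0.25) and under 5 of 14 other settings.

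**Figure D4:**
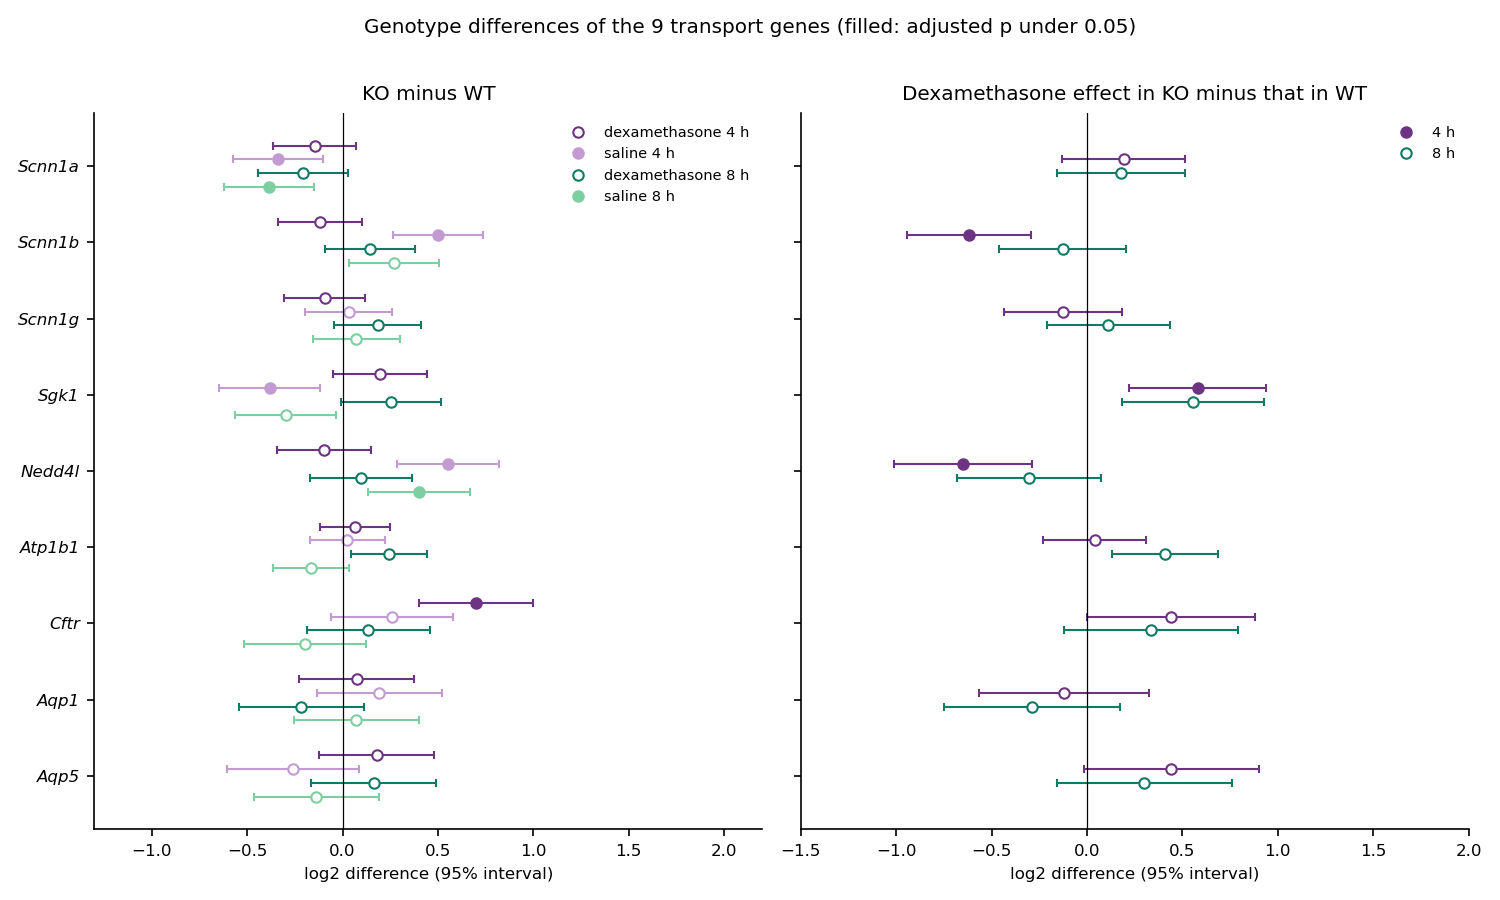
Left: log2 difference between KO and WT lungs for the 9 genes (rows) after dexamethasone and after saline at 4 and 8 h. Right: the dexamethasone effect in KO lungs minus that in WT lungs at 4 and 8 h. Bars are 95% intervals of the fit and filled points passed the adjusted p of 0.05; on the right only Scnn1b, Sgk1 and Nedd4l passed, all at 4 h.

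By the values given above for each array, Nedd4l after saline was 0.55 higher in KO lungs at 4 h (SE 0.13, adjusted p = 0.00588) and 0.40 higher at 8 h (SE 0.13, adjusted p = 0.046), a call lost without any of 14 single arrays (0.31 to 0.47), and in both cases every KO array lay above every WT array. Scnn1b after saline was 0.50 higher in KO lungs at 4 h (SE 0.11, adjusted p = 0.00537), without overlap, and differed by 0.27 at 8 h (adjusted p = 0.125). Sgk1 after saline was lower in KO lungs at 4 h, with a difference of -0.38 (SE 0.13, adjusted p = 0.0393) and no overlap, a call lost without WT saline replicate 34 or 36 or any of KO saline replicates 41, 43 and 44 (-0.44 to -0.30). With slide as a fixed block the Nedd4l difference at 4 h was 0.27 (adjusted p = 0.158). With the bright-to-dim ratio as a covariate none of the 6 saline calls held, and the 4 h differences were 0.26 for Nedd4l, 0.30 for Scnn1b and -0.41 for Sgk1. The SE of that Sgk1 difference was 0.20 with the ratio and 0.13 without it.

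Scnn1a after saline differed by -0.34 at 4 h (adjusted p = 0.0407) and -0.39 at 8 h (adjusted p = 0.0303) by its bright probe, and by 0.81 (adjusted p = 0.00235) and 0.39 (adjusted p = 0.117) by its dim probe, so that its direction depends on the probe.

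Cftr after dexamethasone at 4 h was 0.70 higher in KO lungs (SE 0.14, adjusted p = 0.0177), and every KO array (-2.83 to -2.27) lay above every WT array (-3.43 to -2.90). The 7 KO saline arrays do not enter the means of that difference, but they enter the variance estimate. Without them it was 0.70 with an adjusted p of 0.0519. The call held under 9 of 16 other settings. It was lost with slide as a fixed block (0.63, adjusted p = 0.213) and with median scaling (0.69, adjusted p = 0.057). It was also lost by the mean of both probes (0.83, adjusted p = 0.0593), the dim probe (0.96, adjusted p = 0.304), the deposited series table (0.60, adjusted p = 0.0988) and a fit of only the groups compared (adjusted p = 0.226). Among single arrays, it was lost without WT dexamethasone replicate 49 or 51 or KO dexamethasone replicate 57, 58 or 59, with values of 0.62 to 0.70.

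The difference between the genotypes in the dexamethasone effect was tested directly. At 4 h it was 0.58 for Sgk1 (KO minus WT, SE 0.17, adjusted p = 0.0403), -0.65 for Nedd4l (SE 0.175, adjusted p = 0.0257) and -0.62 for Scnn1b (SE 0.16, adjusted p = 0.0198), 3 of 9 genes against 11.2% of all. Without single arrays of the 4 h groups these calls were often lost: for Sgk1 with each of them except WT saline replicates 33 and 35 and KO dexamethasone replicate 60 (0.49 to 0.64), for Nedd4l without WT saline replicate 36, WT dexamethasone replicate 52, KO saline replicate 43 or 44 or KO dexamethasone replicate 57 or 58 (-0.62 to -0.58), and for Scnn1b without WT saline replicate 36 or KO dexamethasone replicate 58 (-0.57 to -0.53). At 8 h it was 0.55 for Sgk1 (adjusted p = 0.0822), -0.30 for Nedd4l and -0.13 for Scnn1b, and 0 of 9 genes were called, against 4.36%; the 95% intervals of Sgk1 (0.18 to 0.93) and Atp1b1 (0.13 to 0.69) excluded 0 there. Averaged over both times Sgk1 (0.57, adjusted p = 0.0032), Nedd4l (-0.48, adjusted p = 0.0101) and Scnn1b (-0.37, adjusted p = 0.0207) were called, 3 of 9 against 25.6%, where the median over all named genes was 0.11. For Nedd4l and Scnn1b the lower effect in KO lungs goes with higher saline levels there, and for Sgk1 the higher effect with lower saline levels: after dexamethasone at 4 h the genotypes differed by 0.20 for Sgk1, -0.10 for Nedd4l and -0.12 for Scnn1b (adjusted p = 0.742, 0.949 and 0.885). With the ratio as a covariate none of the 3 was called at 4 h, with 0.61 for Sgk1, -0.36 for Nedd4l and -0.42 for Scnn1b. None was called averaged either, with 0.59 for Sgk1 (adjusted p = 0.0717), -0.24 for Nedd4l (adjusted p = 0.419) and -0.21 for Scnn1b (adjusted p = 0.442). With slide as a fixed block Nedd4l and Scnn1b were called neither at 4 h, at -0.34 and -0.50 (adjusted p = 0.223 and 0.0843), nor averaged, at -0.22 and -0.24 (adjusted p = 0.269 and 0.21). With slide as a random block the 4 h call of Nedd4l (-0.48, adjusted p = 0.0569) and the averaged call of Scnn1b (-0.31, adjusted p = 0.0505) were lost. The averaged Sgk1 call was also lost under quantile normalization (0.39, adjusted p = 0.076), normexp (0.41, adjusted p = 0.0716) and in the deposited series table (0.36, adjusted p = 0.107).

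Time alone changed 1 of the 9 genes in saline lungs, where 2.97% of all were called: Atp1b1 was 0.27 higher at 8 h than at 4 h averaged over genotypes (SE 0.07, adjusted p = 0.0311), a call lost without WT saline replicate 36 or 39 or KO saline replicate 41, 43, 47 or 48 (0.23 to 0.27). Its dexamethasone effect was smaller at 8 h than at 4 h in WT lungs, with a difference of -0.50 (SE 0.135, adjusted p = 0.0306) that was no longer called without WT saline replicate 36, 38 or 39 or WT dexamethasone replicate 51, 55 or 56 (-0.51 to -0.43), and it differed by -0.14 in KO lungs (adjusted p = 0.802).

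Around the 9 genes, 57 others of the same pathways were listed, of which 54 were on the array and 53 were tested. Of these 53, 13 rose and 9 fell in WT lungs at 4 h, 10 rose and 8 fell in KO lungs at 4 h, 18 rose and 6 fell in KO lungs at 8 h, and 4 rose and 8 fell in WT lungs at 8 h. Of all named genes, 35.9%, 41.4%, 41.2% and 22.1% were called in these comparisons. Their median log2 difference was 0.06, -0.02, 0.25 and 0.00 in the same order, against -0.02, 0.03, 0.10 and -0.06 over all named genes.

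Among 20 other regulators of ENaC, 6 rose and 4 fell in KO lungs and 8 rose and 2 fell in WT lungs at 4 h (against 41.4% and 35.9% of all called). At 8 h 6 rose and 1 fell in KO lungs and 1 rose and 1 fell in WT lungs (against 41.2% and 22.1%). Tsc22d3, which encodes the glucocorticoid-induced leucine zipper protein, rose by 1.69 in KO lungs (adjusted p = 6.58e-08) and by 1.56 in WT lungs (adjusted p = 2.64e-08). Usp2, a deubiquitinating enzyme, rose by 1.18 in KO lungs and by 1.53 in WT lungs at 4 h. Stk39, a kinase that acts on chloride cotransporters, rose by 0.60 in KO lungs and 0.78 in WT lungs. Prss8, the protease prostasin that activates ENaC, fell by 0.64 in KO lungs (adjusted p = 1.83e-05) and differed by -0.05 in WT lungs (adjusted p = 0.732), and the difference between the genotypes averaged over times was -0.43 (adjusted p = 0.00361).

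Among the 8 other pump subunits tested, Atp1b3, another beta subunit, fell by 0.58 in WT lungs at 4 h (adjusted p = 0.000515), where 35.9% of all named genes were called. The summed level of the 8 there was 5.656 to 6.409 after dexamethasone and 5.74 to 6.183 after saline. In KO lungs at 4 h the sum was 5.713 to 6.251 after dexamethasone and 5.375 to 5.65 after saline.

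Among 12 other chloride and anion transporters tested, 1 rose and 3 fell in KO lungs and 2 rose and 4 fell in WT lungs at 4 h (against 41.4% and 35.9% of all called). At 8 h 3 rose and 3 fell in KO lungs and 2 rose and 2 fell in WT lungs (against 41.2% and 22.1%). Slc26a4, the anion exchanger pendrin, fell at 4 h, with differences of -1.99 in KO lungs and -2.99 in WT lungs (adjusted p = 0.000364 and 1.03e-06). Ano1, the calcium-gated chloride channel, fell in all 4 dexamethasone comparisons, with differences of -0.93 in KO lungs and -0.99 in WT lungs at 4 h. At 8 h they were -1.28 in KO lungs and -1.18 in WT lungs. Lrrc8a, a subunit of the volume-regulated anion channel, rose in all 4, by 1.47 in KO lungs and 1.27 in WT lungs at 4 h, and by 0.92 in KO lungs and 0.45 in WT lungs at 8 h. Slc12a2, the cotransporter that loads epithelial cells with chloride, rose at 8 h by 0.47 in KO lungs and 0.52 in WT lungs, and differed by 0.10 and 0.06 at 4 h (adjusted p = 0.387 and 0.593).

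The potassium channel Kcnk1 rose by 1.84 in KO lungs and 1.71 in WT lungs at 4 h and by 1.59 and 0.88 at 8 h. Kcnn4, a calcium-gated potassium channel, fell in all 4 comparisons, with differences of -1.12 in KO lungs and -1.14 in WT lungs at 4 h, and -0.94 in KO lungs and -0.90 in WT lungs at 8 h. Of the 5 other water channels tested, Aqp11, an aquaporin found inside cells, rose by 1.66 in KO lungs and 1.69 in WT lungs at 4 h, and at 8 h by 0.56 in KO lungs, against a difference of -0.19 in WT lungs (adjusted p = 0.465). Aqp9, which also carries glycerol, fell by 1.27 in WT lungs at 4 h (adjusted p = 0.0128) and differed by -0.33 in KO lungs (adjusted p = 0.585).

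**Figure D5:**
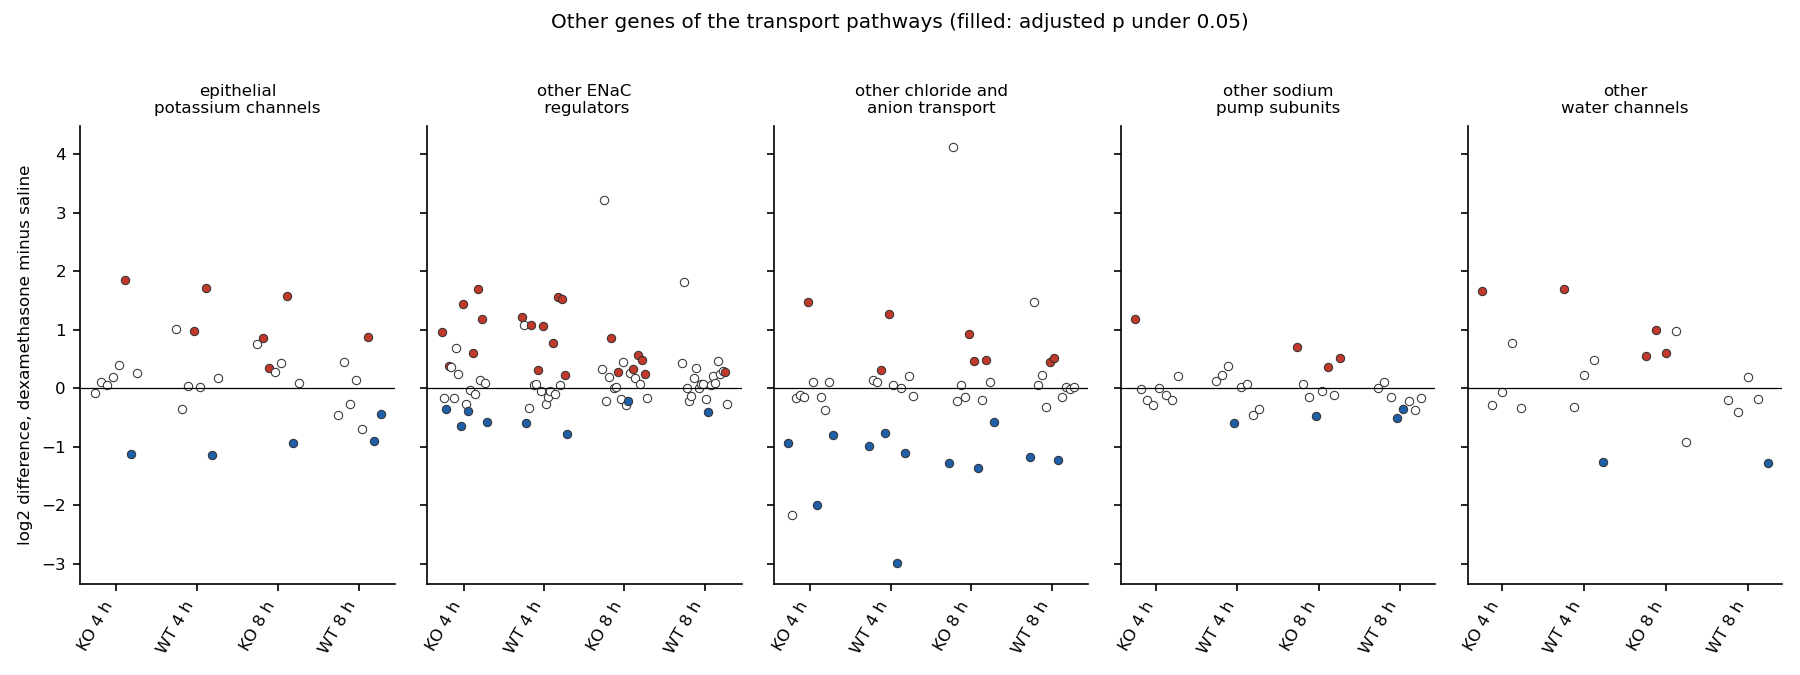
Log2 difference between dexamethasone and saline (y axis) of the 53 other pathway genes, 1 point per gene, in 5 lists and 4 combinations of genotype and time (x axis); filled points passed the adjusted p of 0.05, red above 0 and blue below. The lists hold both rises and falls, and the rises of Kcnk1, Lrrc8a and Aqp11 at 4 h stand at 1.27 to 1.84.

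The genes nearest to each member in their pattern were found among 13417 by the root mean square difference of the 8 group means, each centred on its own mean. Nearest to Sgk1 were Dock9 (0.094), Ms4a8a (0.108) and Rnf152 (0.11), where the Sgk1 means span 1.73. Nearest to Atp1b1, with a span of 1.36, were Elapor2 (0.082), Agtr1a (0.088) and Vapa (0.093). Nearest to Nedd4l, with a span of 1.13, were Dzip1l (0.122), Lpar1 (0.125) and Dag1 (0.128). For Cftr they were Ccl24 (0.14), Heyl (0.15) and Espn (0.163), and for Aqp5 Bend5 (0.044), Trmt12 (0.05) and Mvb12b (0.054). For the flatter ENaC subunits the nearest were Map3k2 (Scnn1a, 0.064), Cdcp1 (Scnn1b, 0.047) and B2m (Scnn1g, 0.049).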

How the data were processed

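Lung RNA was hybridised to Agilent 4x44K single-colour arrays, per the labels. The authors' deposited scanner files hold intensity values per spot from Agilent's Feature Extraction (10.7.3.1 in the headers, 10.6 in the submitters' processing notes). Per the file headers the processed signal had its background subtracted and its spatial trend removed, without normalization between arrays. The deposited series table holds log2 values of unstated scale and centring, and served as an alternative only. Groups came from the labels. Controls and outlier spots (0.101 to 0.908% per array) were dropped, a probe's spots were averaged, and each level is the log2 processed signal less that of the array's 75th percentile. A summed level of a list adds the levels of its genes on the linear scale, and a dropped spot adds nothing to it. The percentile itself was 2074 ± 237 (SD, n = 15) on dexamethasone and 2720 ± 369 (SD, n = 14) on saline arrays. Every difference between treatments is thus relative to a percentile that was lower on dexamethasone arrays, and small differences, such as that of Scnn1g, can depend on this scaling. A probe was kept if 3 or more arrays of any group had it well above background (33935 probes). Probes were named by accession through a RefSeq table of GRCm38.p6 (24844 matched 1 gene, 16330 none). A gene is represented by its brightest kept probe.

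One limma 3.58.1 model (lmFit, eBayes; R 4.3.3) of the 8 group means over 29 arrays gave 15 comparisons, each with Benjamini-Hochberg adjusted p-values; genes under 0.05 are called. The procedure was tested on simulated data. Replicates are called biological in the labels. The 29 arrays lay on 8 slides of 2 to 4, with more than 1 group each, and slide was tried as a fixed and as a random block (consensus correlation 0.37). Other alternatives were quantile normalization, median scaling, normexp (offset 50) on the median signal, other filters, other probes of a gene, variance models, only the groups compared, the deposited table, the bright-to-dim ratio as covariate (genes whose probes differ by over 2 on the log2 scale) and leaving out each array. A mean-signal normexp was not run, as these files hold the median signal.

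The members, lists and tests were chosen with earlier results of these data known. The rule for named genes takes the 9 members with every probe, Klf15 and Fkbp5, up to 4 genes per pathway list with the lowest p in each dexamethasone or genotype comparison, and the 3 genes nearest in pattern to each member called in a dexamethasone comparison. Some genes of the pathway lists are counted but not reported by name here. The markers Ager and Pdpn were named outside this rule.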

Additional observations from a re-analysis of the deposited data

Results flagged for a closer look

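Aqp5 in KO saline replicate 48 at 8 h stood at 4.84, below the other 3 arrays of its group (5.26 to 5.31). It was the single outlying array among 44 sets of 4 arrays (the brightest probe of a gene in a group), and chance flags about 1 in 20 such groups.

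The dexamethasone effect differed between times for 2 members: for Atp1b1 in WT lungs by -0.50 (8 h minus 4 h), and for the bright Cftr probe by 0.95 in KO lungs and 1.06 in WT lungs. It differed between genotypes (KO minus WT) for Sgk1 by 0.58 at 4 h and 0.57 averaged over times, for Nedd4l by -0.65 and -0.48, and for Scnn1b by -0.62 and -0.37. The dim Scnn1a probe differed by -1.08 at 4 h, -0.85 at 8 h and -0.96 averaged, while the bright probe of the same gene differed by 0.19 averaged over times and was not called. The genotype differences rest on the 7 KO saline arrays with the lowest bright-to-dim ratios.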

How the results depend on the processing

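The counts of members called in the 4 dexamethasone comparisons stayed within 1.5 times under every alternative run, but not always with the same genes. Among them Scnn1a and Cftr in KO lungs at 4 h were each called under 9 of 15, Aqp5 there under 13, Cftr in KO lungs at 8 h under 12, and Scnn1g in WT lungs at 4 h under 11 of 16. In KO lungs at 8 h Aqp5 was gained under 7, Scnn1a under 5 and Aqp1 under 3. The other counts moved as follows, out of 9 genes. For KO against WT after saline at 4 h (4 called) the count was 2 under quantile normalization, normexp with quantile, no filter, slide as a fixed block, the deposited table and only the groups compared, and 0 with the bright-to-dim ratio as a covariate. After saline at 8 h (2) it was 0 under quantile normalization, only the groups compared and the ratio, 1 under median scaling, normexp, no filter, the mean of probes, the dimmest probe and the deposited table, and 4 with array weights. After dexamethasone at 4 h (1) it was 0 under median scaling, the mean of probes, the dimmest probe, slide as a fixed block, the deposited table, only the groups compared, and without the 7 KO saline arrays. Averaged (4), it was 2 under median scaling, the mean of probes and the dimmest probe, and 0 with the ratio. For the genotype difference of the effect at 4 h (3) it was 1 under median scaling, normexp, slide as a fixed block, the deposited table and only the groups compared, and 0 with the ratio; at 8 h (0) it was 1 under the dimmest probe and slide as a random block and 2 with array weights; averaged (3), it was 1 with slide as a fixed block and 0 with the ratio. For the dexamethasone effect at 8 h minus that at 4 h in WT lungs (2) it was 1 under quantile normalization, median scaling, normexp, the mean of probes, the dimmest probe, the deposited table, only the groups compared and without the 7 arrays. For the same difference in KO lungs (1) it was 0 under median scaling, the mean of probes and the dimmest probe, and 2 with array weights. For time in saline lungs (1) it was 0 under quantile normalization, median scaling and normexp, and 2 with slide as a fixed or random block. The cause of these moves was not tested.

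Leaving out each array in turn, members called ranged from 4 to 6 (KO 4 h), 6 to 8 (WT 4 h), 3 to 5 (KO 8 h) and 3 to 5 (WT 8 h) for dexamethasone. Between genotypes the count was 2 to 4 and 0 to 3 after saline at 4 and 8 h, 0 to 1 and 0 to 0 after dexamethasone, and 3 to 4 averaged. For the genotype difference of the effect it was 0 to 3, 0 to 1 and 3 to 5 at 4 h, 8 h and averaged. For the dexamethasone effect at 8 h minus that at 4 h it was 1 to 3 (WT) and 0 to 2 (KO), and for time in saline lungs 0 to 2.

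Among values called in either setting, only Scnn1a reversed; of 4052 values called in neither, 151 changed sign. By the mean of its probes it gave -0.112 for dexamethasone in KO lungs at 4 h, 0.234 and 0.00232 for genotype after saline at 4 and 8 h, and -0.389 for the averaged genotype difference of the effect. By its dimmest probe these were -0.633, 0.807, 0.391 and -0.964, with -0.686 for dexamethasone in KO lungs at 8 h, 0.117 for genotype averaged, and -1.08 and -0.848 for the difference of the effect at 4 and 8 h. Leaving out the 7 KO saline arrays was chosen after seeing the data; it gave 0.699 for Cftr after dexamethasone at 4 h (adjusted p = 0.0519). No paired analysis was possible because no replicate number is shared between groups; slides, which groups do share, served as blocks instead.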
